A study of Mus musculus with 21 samples.

Results

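Histone and DNA modifying enzymes were followed as a list of 44 genes, chosen by symbol as writers and erasers of chromatin marks tied to innate immune memory, among the 55487 genes of the count table. All 44 were found by Ensembl identifier and all 44 passed the filter on low counts. RNA was sequenced from striatal microglia of male mice aged 8 to 10 weeks, sorted as live CD11b+, CD45-low, P2RY12+ cells. The groups were offspring of dams with maternal immune activation (MIA) that received lipopolysaccharide (LPS, an outer membrane component of gram-negative bacteria; 4 libraries) or saline (6 libraries), and control offspring that received LPS (5 libraries) or saline (6 libraries). LPS was given intraperitoneally at 4500 endotoxin units per g of body weight, and cells were taken 18 h after either injection. The sources used here do not give the MIA agent or the mouse strain, and no transgene is named.

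Histone deacetylases (HDACs) and sirtuins remove acetyl groups that acetyltransferases place on histone tails. Methyltransferases and demethylases write and erase histone methylation, where H3K4 methylation is found at active promoters and enhancers and H3K27 and H3K9 methylation at silenced genes. DNA methyltransferases (DNMTs) methylate cytosines and TET dioxygenases oxidise that mark as the first step of its removal. In macrophages and microglia, changes in these marks after a first stimulus are known to alter the response to a later one, the setting in which this class of enzymes is usually studied.

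After LPS many of these enzymes differed from saline, in both directions and by very different amounts within a family. Hdac4 and Kdm7a rose and Tet1, Hdac11, Hdac5, Dnmt3a and Kat6a fell in both maternal groups, with Tet1 down by more than 3 log2 units. Tet2 was also called higher in both, but its call in control offspring was lost under 17 of 30 alternative settings. No enzyme was called as different between MIA and control offspring. The upstream sequences of the pair of risers and the pair of fallers with the most extreme response in control offspring are shown here to give the regulatory context of each gene; they are the 250 bases before the RefSeq start (GRCm38.p6), written 5′ to 3′ in the direction of transcription. Capitals mark GC boxes (GGGCGG) and CCAAT boxes (CCAAT) on either strand, the only motifs of the 9 searched that occur in any of these 4 sequences. The windows are chr1:92180342-92180591 (minus strand) for Hdac4, chr6:39206774-39207023 (minus strand) for Kdm7a, chr10:62887325-62887574 (minus strand) for Tet1 and chr6:91156565-91156814 (plus strand) for Hdac11. In all 4 the RefSeq start lies inside the gene as GENCODE draws it; the whole window does for Hdac4 and Tet1, the larger part of it for Hdac11 and a few bases of it for Kdm7a.
Hdac4: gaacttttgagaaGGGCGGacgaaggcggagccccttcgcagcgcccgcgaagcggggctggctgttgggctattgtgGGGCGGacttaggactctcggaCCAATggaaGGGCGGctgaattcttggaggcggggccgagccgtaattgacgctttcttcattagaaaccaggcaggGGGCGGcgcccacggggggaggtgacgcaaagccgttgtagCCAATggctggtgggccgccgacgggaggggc
Kdm7a: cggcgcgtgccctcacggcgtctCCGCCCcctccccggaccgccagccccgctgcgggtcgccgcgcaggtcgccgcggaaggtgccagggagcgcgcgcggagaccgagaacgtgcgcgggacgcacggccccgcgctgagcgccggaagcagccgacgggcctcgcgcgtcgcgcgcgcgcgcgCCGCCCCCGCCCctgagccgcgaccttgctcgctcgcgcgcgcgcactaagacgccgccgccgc
Tet1: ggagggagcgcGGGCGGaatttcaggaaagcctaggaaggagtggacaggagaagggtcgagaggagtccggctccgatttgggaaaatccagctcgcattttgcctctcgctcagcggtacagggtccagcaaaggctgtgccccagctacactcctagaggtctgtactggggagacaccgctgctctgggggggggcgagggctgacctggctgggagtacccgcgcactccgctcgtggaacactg
Hdac11: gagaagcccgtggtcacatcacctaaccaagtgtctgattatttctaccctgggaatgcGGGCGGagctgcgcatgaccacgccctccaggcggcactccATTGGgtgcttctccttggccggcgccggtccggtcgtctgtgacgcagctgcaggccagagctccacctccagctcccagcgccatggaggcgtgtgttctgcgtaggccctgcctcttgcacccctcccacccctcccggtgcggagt

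The CpG count per window was 23 for Hdac4, 56 for Kdm7a, 15 for Tet1 and 17 for Hdac11. RefSeq promoters were at hand for 39 of the 44 genes (53 promoters), with a median of 18 CpGs per window against 6 over all 32851 mouse promoters. A GC box was found in 64.15% of the members' windows and in 32.74% of all windows, and CCAAT in 33.96% and 33.85%. The NF-kB type motif GGGNNTTTCC was found in 2 of the 53 windows (Hdac9 and Setdb1), against 1.41% of all windows. GAAANNGAAA, an interferon response motif, and TGACGTCA, a cyclic AMP response motif, were found in 0 of the 53, against 2.98% and 1.55% of all windows. The AP-1 motif TGANTCA was found in 4 of the 53 (Hdac9, Kat2b, Kdm4a and Kdm5c), against 6.75% of all windows. TTCNNNGAA, the STAT type motif, was found in 3 of the 53 windows (7.02% of all), CACGTG, the E-box, in 5 (6.02%), and GAGGAAGT, an ETS type motif, in 1 (2.44%). A GC box occurred in each of the 4 windows shown, of genes that rose and of genes that fell. All motifs were searched on both strands, no motif contains another, and a match is a description of letters, not of a bound factor.

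The contrasts rested on 19 libraries of batch 1 (3 MIA LPS, 5 MIA saline, 5 control LPS and 6 control saline), with total counts of 9.85 to 19.0 M each (M, mega). A further MIA saline library, replicate 6, carries the word excluded in its title and was not used. MIA LPS replicate 4 is the sole library of batch 2, detected 12264 genes against 17995 to 19559 in the batch 1 libraries, and its values were taken up by the batch term. A ribosomal RNA gene took 43.0% to 53.8% of the counts of the 19 libraries. MIA LPS replicate 2 stood apart from MIA LPS replicates 1 and 3: its summed astrocyte markers were 233 CPM (counts per 1000000 counts of the library), against 118 and 120, and its oligodendrocyte markers 91.5 CPM, against 38.8 and 47.5. The 10 microglial markers were all detected, with Sall1, P2ry12 and Tmem119 among the 7 called lower after LPS in each maternal group. Their summed level was 4683 to 6420 CPM in MIA LPS and 11800 to 16640 CPM in MIA saline libraries, and 5220 to 6786 CPM in control LPS and 12530 to 16640 CPM in control saline libraries. Of 7 monocyte markers, 6 were called higher and Ccr2 lower after LPS in each maternal group, with sums of 36.7 to 44.2 CPM in MIA LPS and 2.95 to 6.87 CPM in MIA saline, and of 31.5 to 86.0 CPM in control LPS and 3.22 to 6.32 CPM in control saline libraries. Of 10 neutrophil markers, 8 were tested. Of these 7 were called higher in MIA and 6 in control offspring, and Csf3r was called lower in each. The neutrophil sums were 86.2 to 178 CPM in MIA LPS and 171 to 214 CPM in MIA saline libraries, and 122 to 177 CPM in control LPS and 164 to 209 CPM in control saline libraries. In all MIA saline libraries 6 of the 10 markers were at 0 (S100a9, Ly6g, Retnlg, Cxcr2, Camp and Mpo), and in all control saline libraries 2 were (Retnlg and Mpo). Lymphocyte markers summed to at most 0.411 CPM in any library. The 6 astrocyte markers summed to 118 to 233 CPM in MIA LPS and 162 to 284 CPM in MIA saline libraries, and to 110.5 to 146 CPM in control LPS and 157 to 310.0 CPM in control saline libraries, with Gfap called higher and Slc1a3 lower in each maternal group. The 6 endothelial and mural markers summed to 9.41 to 15.7 CPM in MIA LPS and 14.8 to 24.6 CPM in MIA saline libraries, and to 8.42 to 14.2 CPM in control LPS and 17.5 to 30.8 CPM in control saline libraries, with Pecam1 called lower in each. Of 7 border macrophage markers F13a1 was called higher and Mrc1 lower in each, with Lyve1 also lower in MIA offspring. Their sums were 12.4 to 31.2 CPM in MIA LPS and 16.1 to 35.1 CPM in MIA saline libraries, and 18.7 to 46.1 CPM in control LPS and 21.1 to 56.8 CPM in control saline libraries. Of 7 oligodendrocyte markers Cnp was called lower in control offspring, and of 8 neuronal markers none was called by edgeR in either. The microglial, monocyte, neutrophil, astrocyte and endothelial markers moved with the LPS results below, and their part in those results was not tested. Fewer cells of a type and less RNA per cell cannot be told apart in bulk RNA.

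Per kilobase of exon, the most abundant enzyme in control saline microglia was Kmt2d, an H3K4 methyltransferase, at 16.8 ± 1.9 CPM per kb (SD, n = 6). Kat6a, an acetyltransferase, followed at 14.8 ± 0.49 and Kdm6b, an H3K27 demethylase, at 12.3 ± 4.4 CPM per kb. Kdm7a (12.03 ± 1.4), Ep300 (11.98 ± 0.57) and Setd2 (11.9 ± 1.2) came next, and the levels from Kdm6b to Setd2 lay within a single SD of each other. At the low end were Tet1 (0.913 ± 0.099), Ezh2 (0.876 ± 0.13), Dnmt3b (0.332 ± 0.13) and Hdac7 (0.0818 ± 0.057 CPM per kb). Hdac7 had 0 to 18 reads per batch 1 library, so its level and its response are close to unmeasured here. After LPS the order at the top changed: Kdm7a was first in control LPS libraries, at 25.2 ± 1.5 CPM per kb (SD, n = 5), ahead of Kdm6b at 15.2 ± 1.9 and Kmt2d at 14.3 ± 1.6, and Tet1 was last, at 0.0510 ± 0.022 CPM per kb, below Hdac7 at 0.0813 ± 0.036 within their spread. The enzymes are long genes, with a median exonic length of 7.03 kb against 3.90 kb over the tested genes. In control offspring the median was 10.8 kb for members called lower, 10.1 kb for those called higher and 5.82 kb for the uncalled. Over all genes tested these medians were 4.63, 3.81 and 3.70 kb.

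In MIA offspring, LPS against saline called 3 members higher (Hdac4, Kdm7a and Tet2) and 14 lower, by edgeR's quasi-likelihood test with Benjamini-Hochberg adjustment over 14741 genes. Of all genes tested, 39.1% were called (20.8% higher and 18.3% lower), and the members' median log2 fold change was -0.22, against 0.02 over all genes tested. At 2-fold or more these were 2 higher and 6 lower (10.8% of all genes in each direction), and LPS and saline libraries did not overlap for 3 higher and 13 lower members (18.5% and 18% of all genes). In control offspring 5 members were called higher (Hdac4, Kdm7a, Dnmt3b, Kat2a and Tet2) and 16 lower by edgeR. Of all genes tested, 44.6% were called (23.3% higher and 21.3% lower). The share of members called in either direction together was thus near that of all genes in both maternal groups and is not a result about the list. By direction more members were called lower than higher in both maternal groups, unlike all genes under TMM scaling, and that split was not tested. With RLE scaling 2 members were called higher and 19 lower in control offspring, where 3019 of all genes were called higher and 3578 lower. With upper quartile scaling 2 members were called higher and 20 lower there, where 2957 of all genes were called higher and 3654 lower. Hdac4 and Kdm7a were the 2 in both. In MIA offspring more of all genes were also called lower than higher with these scalings (2997 against 2734, and 3094 against 2636). With TMM scaling, the members' median log2 fold change in control offspring was -0.14, against -0.00 over all genes tested. At 2-fold or more, 2 members were called higher and 5 lower, where 10.6% and 11.3% of all genes were called. LPS and saline libraries did not overlap for 5 members that were higher and 12 that were lower, where 15.1% and 13.9% of all genes were. The 3 called higher in MIA offspring were also called higher in control offspring (100.0% of the MIA list and 60.0% of the control list), and 12 were called lower in both (85.7% of the MIA list and 75.0% of the control list). Another 21 of the 44 were called in neither. The plot of fold changes by enzyme family shows each of the 44 responses.

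**Figure D1:**
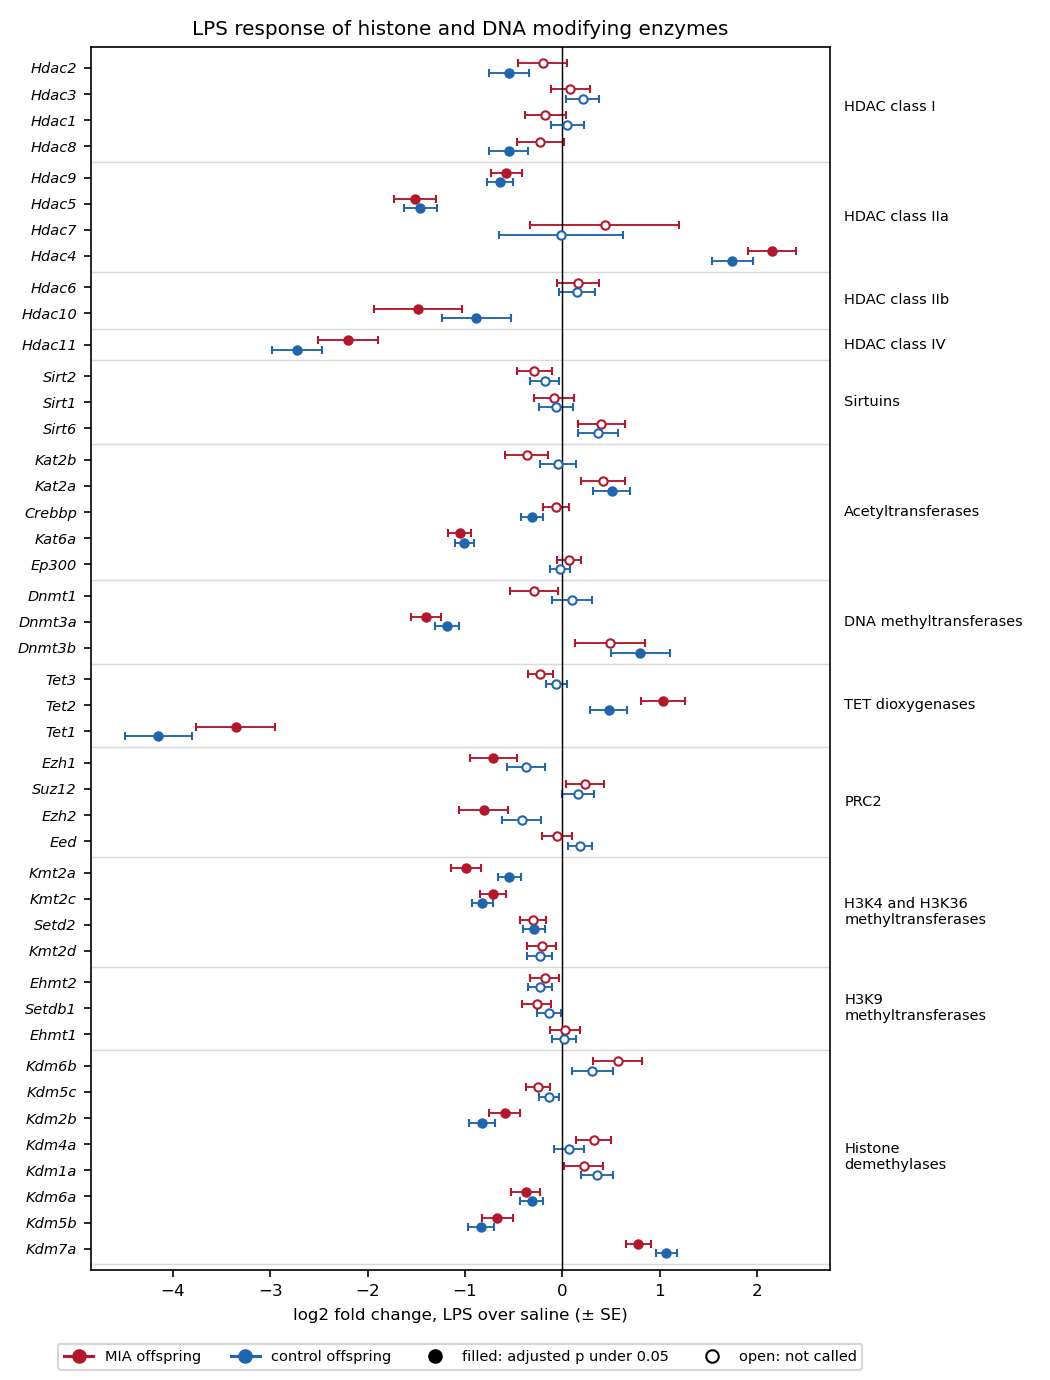
Log2 fold change of LPS over saline (x axis, ± SE) for each of the 44 enzymes, grouped by family, in MIA offspring (red, upper point) and control offspring (blue, lower point); filled points have an adjusted p under 0.05 by edgeR. Hdac4 and Kdm7a stand on the right and Tet1 and Hdac11 farthest on the left in both maternal groups, and sirtuins and H3K9 methyltransferases hold open points around 0.

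Among class IIa deacetylases, which shuttle between nucleus and cytoplasm and repress MEF2-driven genes, the members moved in opposite directions. Hdac4 (chr1:91928779-92195699, minus strand, GRCm38) had 70.8, 136 and 57.3 CPM in MIA LPS libraries, against 14.8, 18.2, 24.9, 17.1 and 23.9 CPM in MIA saline libraries. In control offspring Hdac4 had 74.3, 86.6, 58.7, 60.7 and 95.2 CPM after LPS, against a lowest, median and highest value of 14.6, 23.8 and 27.6 CPM in the 6 saline libraries. Every LPS library lay above every saline library, with MIA LPS replicate 2 the highest of all. The log2 fold change of Hdac4 was 2.15 ± 0.24 in MIA offspring (SE; a 4.45-fold rise, edgeR adjusted p = 2.37e-07) and 1.75 ± 0.21 in control offspring (3.35-fold, edgeR adjusted p = 3.27e-07). Hdac5 (chr11:102194432-102230166, minus strand), its close relative, had 8.54, 12.5 and 7.86 CPM in MIA LPS libraries, against 20.3, 28.9, 32.7, 27.9 and 27.5 CPM in MIA saline libraries. After LPS in control offspring Hdac5 had 10.1, 6.43, 10.2, 7.98 and 7.85 CPM, against 15.8, 24.3 and 27.4 CPM (lowest, median and highest) after saline. The LPS libraries were thus the low ones for Hdac5 and the high ones for Hdac4, without overlap in either gene. Hdac5 fell by 1.51 ± 0.21 on the log2 scale in MIA offspring (SE, edgeR adjusted p = 2.57e-06) and by 1.46 ± 0.17 in control offspring (edgeR adjusted p = 1.31e-07). Hdac9, the third member measured well, fell by 0.58 ± 0.16 in MIA and by 0.64 ± 0.13 in control offspring (edgeR adjusted p = 0.00492 and 0.000237).

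Because a ratio of 2 genes within a library does not depend on scaling, related enzymes were also set against each other in each library. The mean log2 ratio of Hdac4 to Hdac5 counts was 3.12 ± 0.30 in MIA LPS (SD, n = 3) and -0.49 ± 0.20 in MIA saline libraries (SD, n = 5), a difference of 3.60; here the smallest p that the two-sided exact permutation test allows is 0.0179, which was reached, and the adjusted p was 0.0833 over 28 tests. In control offspring it was 3.13 ± 0.52 after LPS (n = 5) and -0.07 ± 0.32 after saline (n = 6), a difference of 3.20 (exact permutation test, p = 0.00216, the smallest that 462 divisions allow; adjusted p = 0.0303). The Tet2 to Tet3 ratio differed by 1.09 in MIA offspring (1.10 ± 0.91 after LPS and 0.00 ± 0.18 after saline; exact permutation p = 0.0179, adjusted 0.0833) and by 0.55 in control offspring (0.63 ± 0.22 and 0.09 ± 0.14; exact permutation p = 0.00216, adjusted 0.0303). LPS and saline libraries did not overlap for either ratio in either maternal group. For Hdac4 to Hdac5 this separation, and with it the smallest p, follows from the values of the 2 genes above and adds no separate support. The other 5 ratios tested (Hdac1 to Hdac2, Ezh2 to Ezh1, Kdm6b to Kdm6a, Ep300 to Crebbp and Kat2b to Kat2a) did not pass the threshold in any comparison. No ratio passed it between MIA and control offspring after saline or after LPS. After LPS, with 3 and 5 libraries, the smallest p that the exact permutation test allows is again 0.0179. That p stood at 0.0833 after adjustment, so the comparison after LPS cannot show whether a ratio differed. A ratio shows unequal change of 2 genes, not which of them changed. Without any one of the 11 control libraries, 0 ratios passed, since the smaller groups cannot reach the threshold after adjustment.

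**Figure D2:**
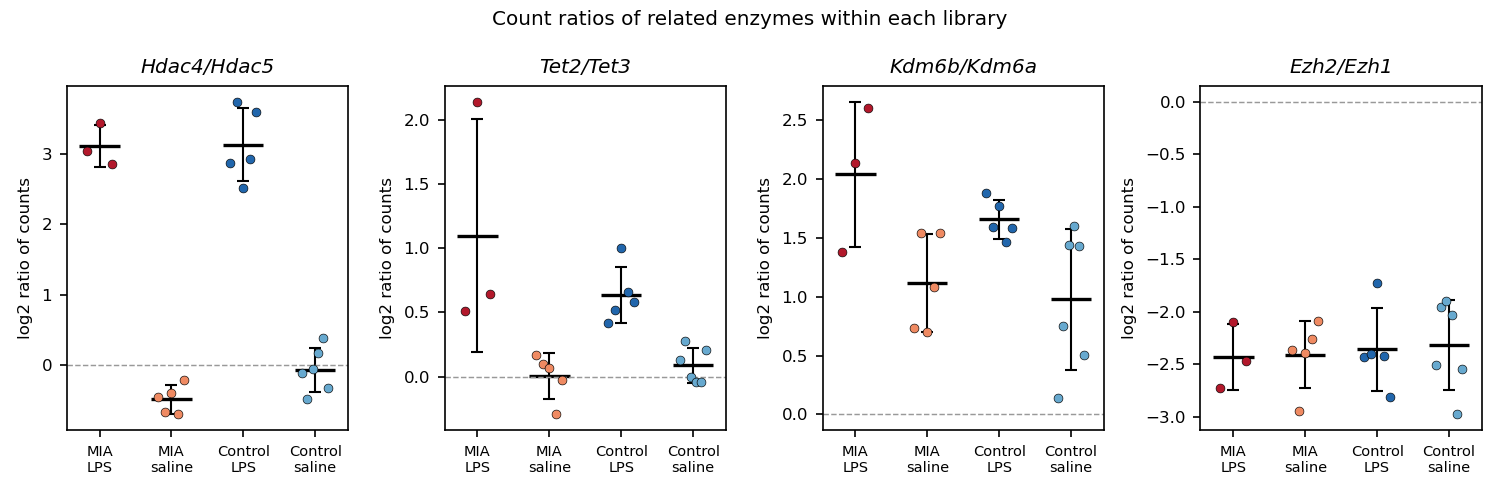
Log2 ratio of the counts of 2 related enzymes within each batch 1 library (y axis), by group (x axis); points are libraries, lines are means and bars are SDs. The Hdac4 to Hdac5 ratio is 2.52 or more in every LPS library and 0.385 or less in every saline library, while the Ezh2 to Ezh1 ratio overlaps between all groups.

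Hdac11, the sole class IV deacetylase, which in macrophages is known to restrain the cytokine IL-10, fell the most of all deacetylases. Hdac11 (chr6:91156665-91174692, plus strand) had 2.45, 2.32 and 0.792 CPM in MIA LPS libraries, against 10.3, 9.40, 7.29, 9.43 and 5.80 CPM in MIA saline libraries. In control offspring it had 1.08, 1.62, 0.831, 1.41 and 1.12 CPM after LPS, against 7.09, 8.14 and 9.03 CPM (lowest, median and highest) after saline. The ranges did not overlap in either maternal group. It fell by 2.20 ± 0.31 in MIA offspring (SE, edgeR adjusted p = 2.42e-06) and by 2.72 ± 0.26 in control offspring (edgeR adjusted p = 2.8e-09). Hdac10, a class IIb enzyme that acts on polyamines, was measured at low depth (25 to 35 counts per control LPS and 28 to 84 per control saline library). Hdac10 (chr15:89123307-89128700, minus strand) had 2.45, 0.217 and 1.92 CPM in MIA LPS libraries, against 5.87, 3.94, 2.97, 5.16 and 3.33 CPM in MIA saline libraries, without overlap; the value of 0.217 CPM, from 3 counts, is that of MIA LPS replicate 2. In control offspring Hdac10 had 1.90, 1.50, 2.80, 2.28 and 2.24 CPM after LPS, against 2.17, 4.10 and 5.28 CPM (lowest, median and highest) after saline, and these overlapped. It fell by 1.48 ± 0.45 in MIA offspring (SE, edgeR adjusted p = 0.0107) and by 0.88 ± 0.35 in control offspring (edgeR adjusted p = 0.0444), and without MIA LPS replicate 2 the MIA value was -0.96 (edgeR adjusted p = 0.051). Of class I, the nuclear deacetylases of the main corepressor complexes, none of the 4 was called in MIA offspring, and in control offspring Hdac2 fell by 0.55 ± 0.20 and Hdac8 by 0.55 ± 0.20 (SE, edgeR adjusted p = 0.0307 and 0.0272). Hdac1 (31.4 ± 4.1 CPM in control LPS and 30.2 ± 4.1 CPM in control saline libraries) and Hdac3, the NCoR partner, were not called by edgeR in either, nor was Hdac6, a tubulin deacetylase. All 3 sirtuins, the NAD-dependent deacetylases Sirt1, Sirt2 and Sirt6, were uncalled by edgeR, with log2 fold changes of -0.29 to 0.40 in MIA and -0.18 to 0.37 in control offspring.

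The members of each family of DNA methylation enzymes did not all change alike. Dnmt3a, a de novo methyltransferase (chr12:3806007-3914443, plus strand), had 41.4, 54.5 and 51.3 CPM in MIA LPS libraries, against 124, 105, 147, 137 and 134 CPM in MIA saline libraries. In control offspring Dnmt3a had 53.0, 49.7, 61.4, 54.0 and 54.7 CPM after LPS, against 101, 127 and 151 CPM (lowest, median and highest) after saline. LPS libraries were below saline libraries without overlap in both, and the fall was 1.40 ± 0.15 in MIA and 1.18 ± 0.12 in control offspring (SE, edgeR adjusted p = 4.51e-08 and 1.15e-08). Dnmt3b, the other de novo enzyme, was not called in MIA offspring, at 0.49 ± 0.36. In control offspring Dnmt3b had 2.96 ± 0.61 CPM after LPS and 1.69 ± 0.65 CPM after saline (SD, n = 5 and 6) and rose by 0.80 ± 0.30 on the log2 scale (edgeR adjusted p = 0.0333). That call was lost under 8 of 30 alternative settings, RLE scaling and upper quartile scaling included. Dnmt1, which copies methylation after replication, was not called (-0.29 ± 0.25 in MIA and 0.10 ± 0.20 in control offspring).

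Of the TET dioxygenases, Tet1 (chr10:62804570-62908996, minus strand) had the largest fall of the 44 genes. It had 0.423, 2.75 and 0.396 CPM in MIA LPS libraries, against 13.4, 10.4, 12.6, 11.9 and 13.2 CPM in MIA saline libraries. In control offspring Tet1 had 1.08, 0.661, 1.14, 0.737 and 0.321 CPM after LPS, against 11.4, 14.4 and 15.6 CPM (lowest, median and highest) after saline. In counts the control values were 4 to 20 reads per LPS library and 191 to 241 reads per saline library. Every LPS library was far below every saline library, and the highest LPS value was that of MIA LPS replicate 2. The fall was 3.35 ± 0.41 in MIA offspring (SE, edgeR adjusted p = 3.14e-07) and 4.15 ± 0.34 in control offspring (edgeR adjusted p = 3e-10), and the MIA value was -4.88 without MIA LPS replicate 2. Tet2 (chr3:133463679-133545139, minus strand), which in myeloid cells is known to end Il6 transcription by recruiting a deacetylase, had 157, 471 and 193 CPM in MIA LPS libraries, against 143, 127, 156, 110 and 132 CPM in MIA saline libraries. In control offspring Tet2 had 152, 198, 196, 171 and 189 CPM after LPS, against 107, 131 and 147 CPM (lowest, median and highest) after saline. LPS libraries were higher without overlap in both, though the lowest MIA LPS value, 157 CPM, lay just above the highest MIA saline value, 156 CPM. Tet2 rose by 1.03 ± 0.22 in MIA offspring (SE, edgeR adjusted p = 0.000638) and by 0.48 ± 0.19 in control offspring (edgeR adjusted p = 0.0434), and the MIA value was 0.39 without MIA LPS replicate 2 (edgeR adjusted p = 0.0448). The Tet2 call in control offspring was lost under 17 of 30 alternative settings, RLE scaling, upper quartile scaling and DESeq2 included. Tet3 was not called by edgeR in either (-0.22 ± 0.13 in MIA and -0.06 ± 0.11 in control offspring).

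**Figure D3:**
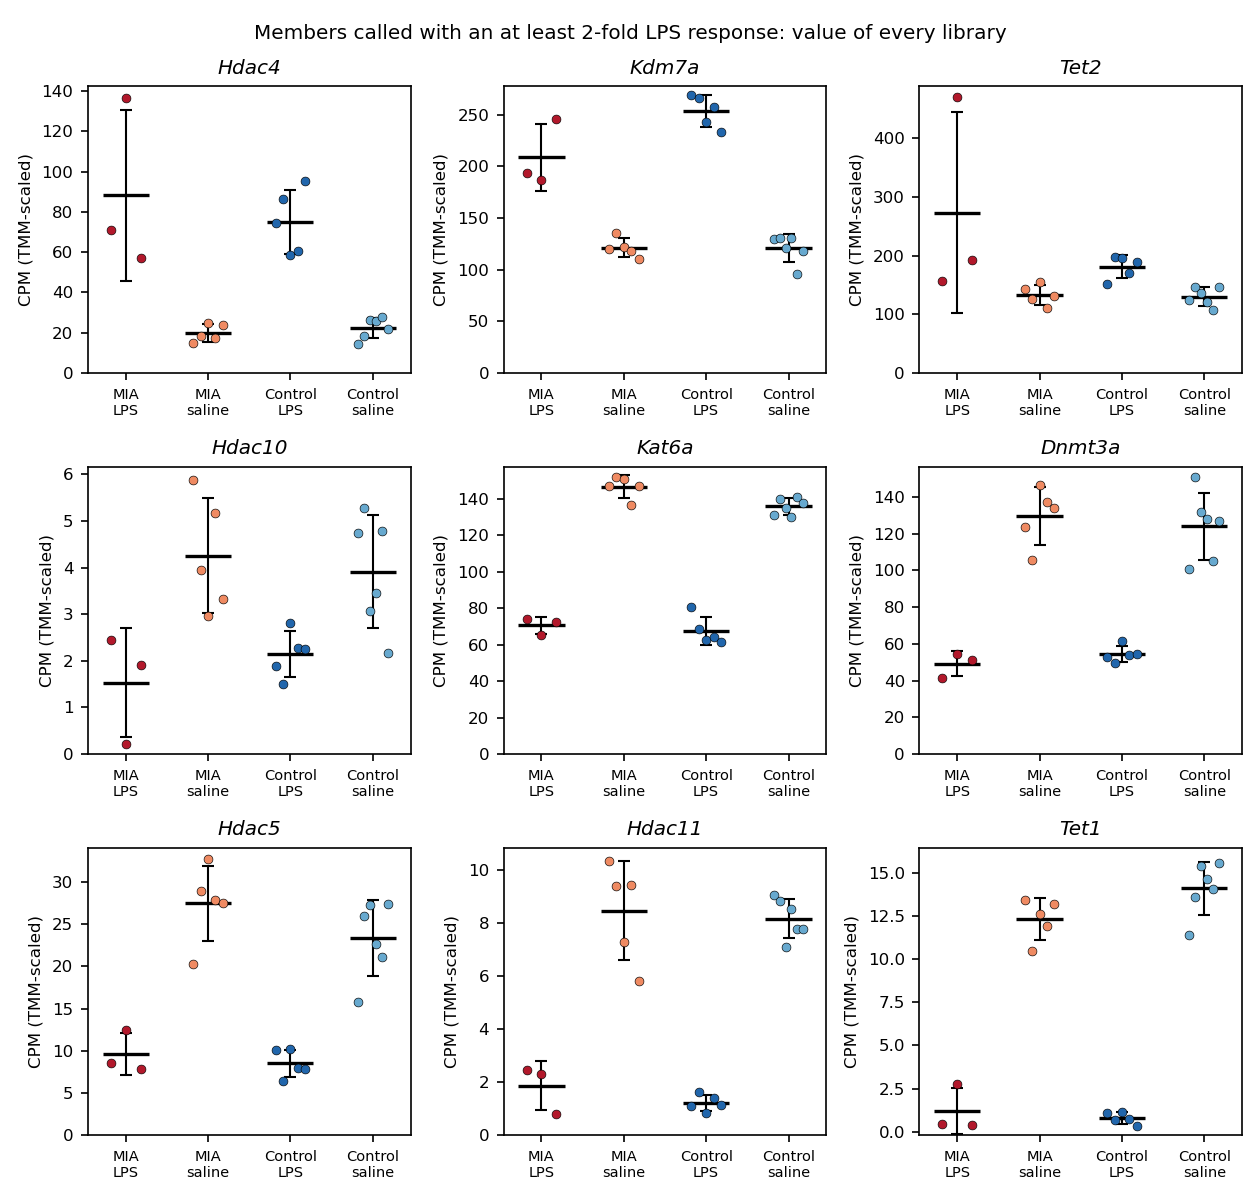
TMM-scaled CPM of every batch 1 library (points) with the mean and SD (line and bar) in MIA LPS, MIA saline, control LPS and control saline libraries, for the 9 enzymes called with an at least 2-fold LPS response in either maternal group. Hdac4 and Kdm7a are higher and Kat6a, Dnmt3a, Hdac5, Hdac11 and Tet1 lower in all LPS libraries than in all saline libraries, and the MIA LPS library at 471 CPM of Tet2 is replicate 2.

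Histone demethylases held the other large rise. Kdm7a, which removes H3K9 and H3K27 methylation (chr6:39136623-39206789, minus strand), had 194, 187 and 246 CPM in MIA LPS libraries, against 120, 136, 122, 118 and 111 CPM in MIA saline libraries. In control offspring Kdm7a had 269, 266, 243, 257 and 233 CPM after LPS, against 95.7, 125 and 131 CPM (lowest, median and highest) after saline. The LPS libraries were higher without overlap, and the rise was 0.78 ± 0.13 in MIA and 1.07 ± 0.11 in control offspring (SE, edgeR adjusted p = 2.36e-05 and 9.87e-09). Kdm5b, an H3K4 demethylase, fell by 0.67 ± 0.16 in MIA and 0.84 ± 0.13 in control offspring (SE, edgeR adjusted p = 0.00162 and 9.73e-06). Kdm2b, an H3K36 demethylase that recruits a variant polycomb complex to CpG islands, fell by 0.59 ± 0.16 in MIA and 0.83 ± 0.13 in control offspring (edgeR adjusted p = 0.00466 and 1.38e-05). Kdm6a, the X-linked H3K27 demethylase, fell by 0.38 ± 0.14 in MIA and 0.32 ± 0.12 in control offspring (edgeR adjusted p = 0.0401 and 0.0331). Kdm6b, the H3K27 demethylase known as an LPS-induced gene in cultured macrophages, was not called. Its log2 fold change was 0.57 in MIA offspring (95% interval 0.08 to 1.06, edgeR adjusted p = 0.0785) and 0.31 in control offspring (-0.11 to 0.72, edgeR adjusted p = 0.253), where it had 106 ± 13 CPM after LPS and 85.5 ± 30 CPM after saline (SD). Kdm1a, Kdm4a and Kdm5c were uncalled by edgeR in both, at -0.25 to 0.36. Kdm5c was called lower in MIA offspring under RLE scaling, upper quartile scaling and DESeq2 (smallest adjusted p over 30 alternatives 0.0249, largest 0.281). Kdm1a was called higher in control offspring by limma-voom with a block on the ID number and without control saline replicate 2 (adjusted p of 0.0392 to 0.201 over the alternatives).

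Among acetyltransferases, Kat6a (MOZ, chr8:22859535-22943259, plus strand), which acts on histone H3, was the one that changed most. It had 74.3, 65.3 and 72.4 CPM in MIA LPS libraries, against 147, 152, 151, 137 and 147 CPM in MIA saline libraries. In control offspring Kat6a had 80.6, 68.4, 62.6, 64.1 and 61.6 CPM after LPS, against 130, 137 and 141 CPM (lowest, median and highest) after saline. The ranges did not overlap, and Kat6a fell by 1.05 ± 0.12 in MIA and 1.01 ± 0.10 in control offspring (SE, edgeR adjusted p = 9.87e-08 and 3.96e-09). Kat2a (GCN5) was not called in MIA offspring, at 0.42 ± 0.23, where it was 0.77 without MIA LPS replicate 2 (edgeR adjusted p = 0.000938), and rose in control offspring, by 0.51 ± 0.19 (edgeR adjusted p = 0.0299). Of the paired coactivators, Crebbp was at -0.07 ± 0.13 in MIA offspring, uncalled, and fell by 0.31 ± 0.11 in control offspring (edgeR adjusted p = 0.025), and Ep300 was uncalled in both (168 ± 20 CPM in control LPS and 171 ± 8.1 CPM in control saline libraries). Kat2b (PCAF) was uncalled by edgeR in both.

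Of the methyltransferases that write H3K4 or H3K36 methylation, 2 of 4 fell in MIA and 3 of 4 in control offspring, where 18.3% and 21.3% of all genes were called lower. Kmt2a (MLL1) had 68.0 ± 19 CPM in MIA LPS and 135 ± 5.0 CPM in MIA saline libraries (SD), a fall of 0.99 ± 0.15 (SE, edgeR adjusted p = 9.26e-06). In control offspring Kmt2a had 86.1 ± 10 CPM after LPS and 126 ± 7.8 CPM after saline, a fall of 0.54 ± 0.12 (edgeR adjusted p = 0.000701). Kmt2c (MLL3), which marks enhancers, fell by 0.71 ± 0.13 in MIA and 0.82 ± 0.11 in control offspring (edgeR adjusted p = 9.18e-05 and 6.17e-07), and its partner in that role Kmt2d was uncalled by edgeR, at -0.21 ± 0.15 in MIA and -0.23 ± 0.12 in control offspring. In control offspring Kmt2d was called lower under RLE scaling, upper quartile scaling and DESeq2 (adjusted p of 0.0306 to 0.256 over 30 alternatives). Setd2, which writes H3K36 trimethylation, was at -0.30 ± 0.13 in MIA offspring, uncalled (edgeR adjusted p = 0.0754), and fell by 0.29 ± 0.11 in control offspring (edgeR adjusted p = 0.0356). The Setd2 call in control offspring was lost under 10 of the 30 alternatives, and in MIA offspring Setd2 was called lower under 7 of them, RLE scaling and DESeq2 included. The H3K9 methyltransferases Setdb1, Ehmt1 (GLP) and Ehmt2 (G9a) were uncalled by edgeR in both, at -0.26 to 0.03, though Ehmt2 was called lower in control offspring under RLE scaling, upper quartile scaling and DESeq2 (adjusted p of 0.0329 to 0.235 over the alternatives). In polycomb repressive complex 2 (PRC2), which writes H3K27 methylation, Ezh2 fell by 0.81 ± 0.25 and Ezh1 by 0.71 ± 0.24 in MIA offspring (SE, edgeR adjusted p = 0.0123 and 0.0205). Both calls were lost without MIA LPS replicate 2 (-0.60 and -0.40, edgeR adjusted p = 0.0843 and 0.146), and also by limma-voom with sample weights. In control offspring none of the 4 PRC2 members was called by edgeR with TMM scaling. There Ezh2 was at -0.42 ± 0.20, with LPS libraries below saline libraries without overlap, and was called lower under RLE scaling, upper quartile scaling and DESeq2 (adjusted p of 0.0327 to 0.447 over the alternatives). Ezh1 was called lower in control offspring under upper quartile scaling, by DESeq2 and without MIA LPS replicate 2 (adjusted p of 0.0436 to 0.256). Eed and Suz12, the subunits without catalytic activity, were uncalled at -0.05 to 0.23.

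Calls in control offspring with an adjusted p near 0.05 depended on single libraries. Leaving out control saline replicate 2 ended the call of Crebbp (log2 fold change -0.27, edgeR adjusted p = 0.0621). Kat2a was lost without control LPS replicate 1 or 5 or control saline replicate 2 or 3 (0.43 to 0.48), and Dnmt3b without control saline replicate 2, 3 or 4 or control LPS replicate 5 (0.64 to 0.76). Hdac8 was lost without control LPS replicate 1, 3 or 4 or control saline replicate 3 (-0.54 to -0.44), and Hdac2 without control LPS replicate 1 or 4 or control saline replicate 2, 4 or 6 (-0.52 to -0.45). Setd2 was lost without any control saline library but replicate 5, or without control LPS replicate 4 or 5 (-0.29 to -0.24). Kdm6a was lost without control LPS replicate 1, 2 or 4 or control saline replicate 1, 3, 4 or 6 (-0.32 to -0.26), and its MIA call without MIA LPS replicate 1 or 3 or MIA saline replicate 1, 3 or 4 (-0.40 to -0.25). Tet2 in control offspring was lost without any of 11 libraries (control LPS replicate 2, 3, 4 or 5, control saline replicate 1, 3, 4 or 5, MIA saline replicate 1, 2 or 5), at 0.42 to 0.50 and adjusted p by edgeR of up to 0.113. Hdac10 in control offspring was lost without any of 10 (control LPS replicate 1, 2, 4 or 5, control saline replicate 1, 2, 4 or 5, MIA saline replicate 2 or 4), at -0.92 to -0.78. The count of members called higher in control offspring was 2 without control saline replicate 3 or control LPS replicate 5, and 3 without control saline replicate 4.

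The batch 2 library of the MIA LPS group, which entered no contrast, did not resemble the batch 1 LPS libraries in every enzyme. Its Hdac4 (78.2 CPM) and Tet1 (0.360 CPM) lay within the range of the batch 1 LPS libraries, and its Dnmt3a (36.1 CPM) and Kat6a (44.8 CPM) below every one of them. Its Tet2 (238 CPM) lay above every batch 1 LPS library except MIA LPS replicate 2 (471 CPM). Its Hdac5, at 63.5 CPM, and Hdac11, at 12.7 CPM, lay above every saline library. Its Kdm7a, at 83.1 CPM, lay below every saline library, and Hdac10 was at 0.960 CPM and Ezh2 at 0. The monocyte markers of this library summed to 151 CPM (31.5 to 86.0 in batch 1 LPS libraries) and its neutrophil markers to 322 CPM (86.2 to 178). Its microglial sum, 5922 CPM, lay within the range of batch 1 LPS libraries, and its astrocyte sum, 56.3 CPM, below it. The part of these markers in its enzyme values was not tested.

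No member was called in any comparison of MIA with control offspring by edgeR, and no gene of the 14741 was (0% called in each). At an unadjusted p under 0.05 by edgeR, the difference of the LPS responses held 1 of 44 members (3.33% of all genes), the saline comparison of MIA with control 2 (2.82%) and the LPS comparison 4 (5.6%). DESeq2 also called 0 members in each. Of 14741 genes, DESeq2 called 3 higher and 3 lower in MIA offspring after saline, 0 after LPS and 0 for the difference of responses. The members with the smallest unadjusted p are named with their values and were not called. For the difference of responses, MIA minus control, these were Kmt2a (-0.44 ± 0.19, edgeR adjusted p = 1.0), Tet2 (0.56 ± 0.30) and Kdm7a (-0.29 ± 0.17). After saline they were Hdac2 (8.43 ± 1.9 CPM in MIA and 11.5 ± 2.0 CPM in control offspring, log2 fold change -0.45 ± 0.20), Sirt1 (13.3 ± 2.3 and 10.4 ± 1.6 CPM, 0.35 ± 0.17) and Kdm5c (47.2 ± 3.9 and 40.9 ± 3.3 CPM, 0.21 ± 0.10), each with an adjusted p of 1.0 by edgeR. After LPS they were Tet2 (274 ± 172 CPM in MIA and 181 ± 20 CPM in control offspring, 0.60 ± 0.23, edgeR adjusted p = 0.806), Crebbp (144 ± 35 and 116 ± 6.6 CPM, 0.31 ± 0.13) and Kmt2a (68.0 ± 19 and 86.1 ± 10 CPM, -0.34 ± 0.15), the other two at an adjusted p of 0.866 by edgeR. MIA and control libraries overlapped for all 44 members in both comparisons; over all genes, 0.176% were higher and 0.224% lower without overlap after saline, and 1.28% and 1.4% after LPS. Without MIA LPS replicate 2, the values after LPS were -0.05 for Tet2, 0.12 for Crebbp and -0.14 for Kmt2a, and the Kmt2a and Tet2 differences of responses were -0.24 and -0.08. Tet1, at 0.60 after LPS with all libraries, was at -0.93 ± 0.43 without MIA LPS replicate 2 (unadjusted p = 0.0384, edgeR adjusted p = 0.888), a change of sign.

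**Figure D4:**
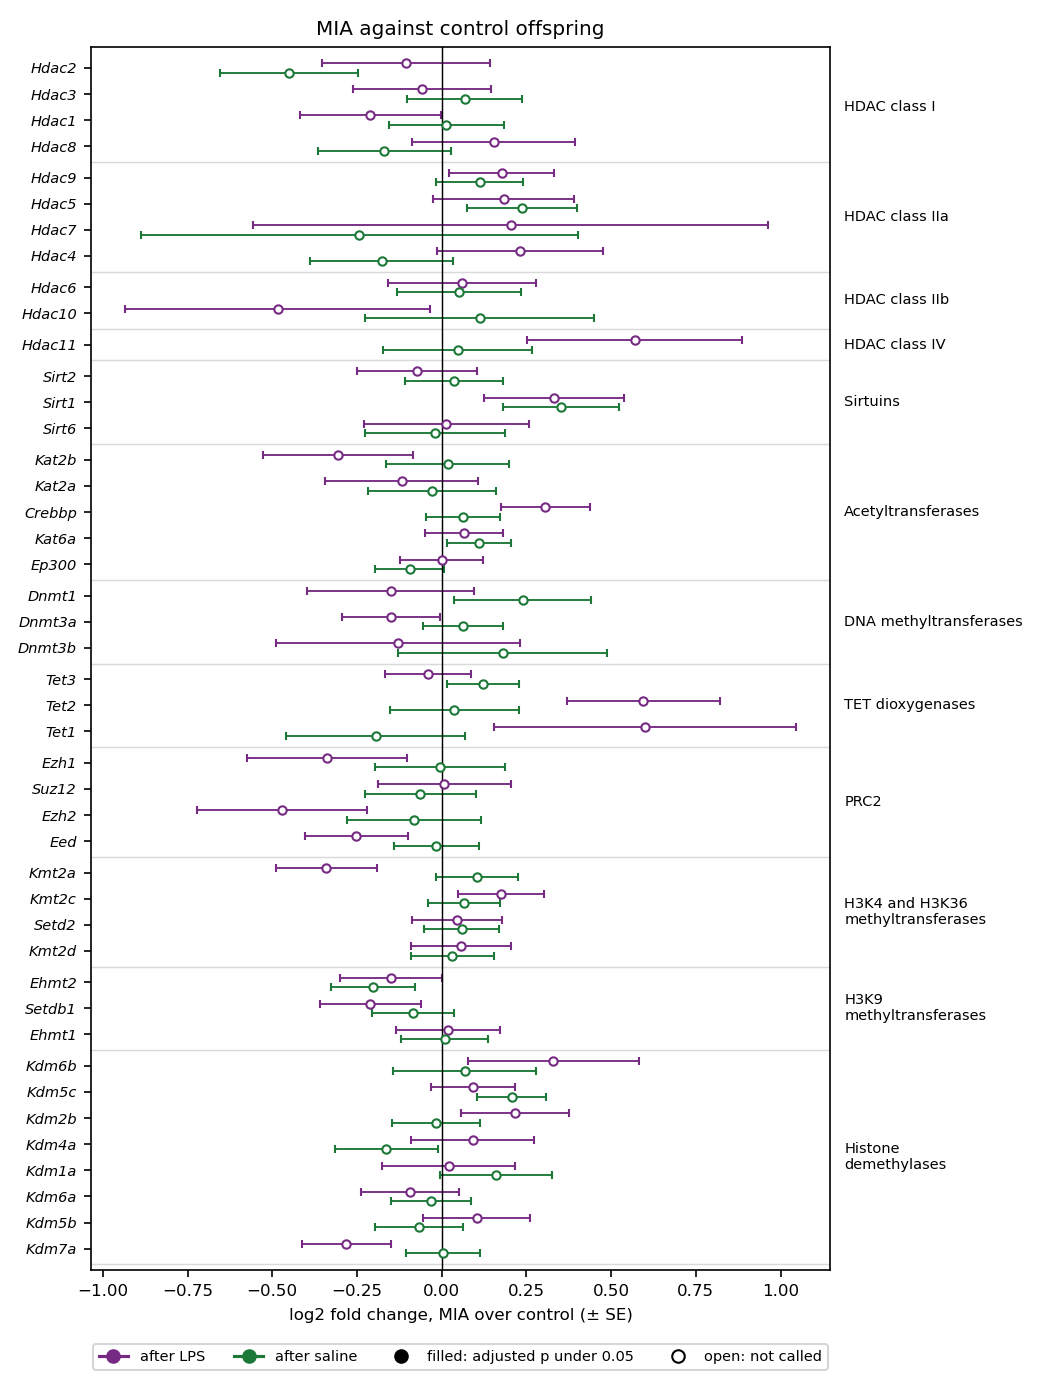
Log2 fold change of MIA over control offspring (x axis, ± SE) for each of the 44 enzymes after LPS (purple, upper point) and after saline (green, lower point). All points are open, since no adjusted p by edgeR was under 0.05, and the values run from -0.48 to 0.60.

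A call that misses the threshold does not show that the groups were alike. The difference of responses had a median SE of 0.26 over the 44 members. For Dnmt3a the 95% interval of that difference was -0.58 to 0.15, for Kat6a -0.34 to 0.25 and for Hdac5 -0.57 to 0.47, so a change of the response by more than 2-fold was outside the interval for these. For Tet1 it was -0.22 to 1.81, for Hdac11 -0.24 to 1.28 and for Hdac4 -0.23 to 1.04, which leaves a 2-fold difference inside. The intervals of Tet1 and Hdac4 rested on MIA LPS replicate 2. Without it the Tet1 difference was -0.74 (-1.64 to 0.17), of the opposite sign, and that of Hdac4 was -0.05 (-0.61 to 0.50), with a 2-fold difference outside. That of Hdac11 was 0.31 (-0.52 to 1.13), and for Dnmt3a, Kat6a and Hdac5 a 2-fold difference was still outside.

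Other chromatin genes, 72 further writers, erasers and readers of which 71 were tested, also moved both ways after LPS, in shares close to those of all genes (39.1% called in MIA and 44.6% in control offspring). In MIA offspring 14 were called higher and 15 lower by edgeR, with a median of -0.07 against 0.02 over all genes, and in control offspring 16 higher and 18 lower, with a median of -0.02 against -0.00. Hat1, which acetylates newly made histone H4, rose by 1.28 ± 0.17 in MIA offspring and by 1.30 ± 0.15 in control offspring (32.4 ± 3.8 CPM after LPS and 13.2 ± 2.5 CPM after saline; edgeR adjusted p = 5.76e-08). Setdb2, a SET domain protein induced by interferon in macrophages, rose by 1.18 ± 0.22 and 1.25 ± 0.19, Prmt5, an arginine methyltransferase, by 1.13 ± 0.20 and 1.18 ± 0.17, and Suv39h1, an H3K9 methyltransferase, by 1.16 ± 0.23 and 0.99 ± 0.20 (MIA and control offspring). Lower in MIA and control offspring were the demethylases Kdm1b (-1.08 ± 0.22 and -1.31 ± 0.18) and Kdm3b (-1.08 ± 0.13 and -1.13 ± 0.11), the related Jmjd1c (-0.75 ± 0.20 and -1.06 ± 0.17) and Kmt5c, an H4 methyltransferase (-1.46 ± 0.27 and -0.85 ± 0.21). Of 16 cell cycle genes, 14 were tested and 5 were called higher (Mcm2, Mcm4, Mcm6, Pcna and Bub1b) and 1 lower (Mki67) in MIA offspring; in control offspring Mcm2 was not called and the other calls were made. None of these was called between MIA and control offspring by edgeR.

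Several of the 44 genes share exonic sequence with a neighbour, and the sources used here do not say whether reads were assigned by strand. E230029C05Rik, at 78.1 CPM, overlaps Eed (36.7 CPM) on the opposite strand, Slc48a1 (14.7 CPM) overlaps Hdac7 (0.554 CPM), Cers2 (68.8 CPM) overlaps Setdb1 (57.9 CPM) and Rnf34 (20.7 CPM) overlaps Kdm2b (43.2 CPM), so reads of these pairs cannot be told apart there. For Hdac4, Kat6a and Tet1 the annotation listed no such neighbour, and for Kdm7a, Tet2, Hdac5 and Hdac11 the neighbours were at 0.459 CPM or less.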

How the data were processed

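The deposited table held the authors' estimated counts, without normalization, of 21 libraries (55487 genes). Per the submitters' processing notes, STAR, RSEM and DESeq2 were used, with neither version nor role stated; genome build, annotation and strand setting: not given in the sources used here. Libraries were made with a modified Smart-Seq2 protocol primed with oligo-dT, per the labels' protocols, with no molecular identifiers stated, so counting precision does not cover amplification. Of the values 6.27% were not whole and were rounded. Symbols came from GENCODE M21 (GRCm38), which held 55227 of the identifiers with the version left off, and promoter sequences from RefSeq (GRCm38.p6).

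Total counts of the 19 batch 1 libraries fitted were 9.85 to 19.0 M (mega). Genes passing edgeR's filter (minimum count 10, minimum total 15) numbered 14741, with 99.89% of the counts. Tests were quasi-likelihood tests of edgeR 4.0.16 (R 4.3.3; robust, TMM scaling) in a single fit of 20 libraries with a mean per group and a batch term (15 residual degrees of freedom, common biological coefficient of variation 0.252). Calls were made at a p under 0.05 after Benjamini-Hochberg adjustment over all genes tested. The SE of a log2 fold change is its size over the square root of F, and 95% intervals are 1.96 SE to either side. CPM are TMM-scaled, marker sums excepted, which are relative to total counts. Pair ratios used counts plus 0.5 and exact permutation tests (Python 3.11.15, numpy 2.4.6). Alternatives were other scalings and filters, DESeq2 1.42.0, limma-voom 3.58.1, blocks, the batch term and leaving out each library. The scripts were tested on simulated data. Replicates differed by more than sampling noise (smallest chi-square per degree of freedom, 9.58). The labels do not say whether mice were littermates, and p-values measure the spread between these libraries.

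Members and lists were chosen with earlier results of these data known. Every called member is named; members called at 2-fold or more in either LPS contrast are given by library (the 6 control saline libraries by lowest, median and highest value); where MIA contrasts gave no call, the 3 smallest p are named; of other chromatin genes, the 3 largest called rises and falls per LPS contrast with mean log2 CPM of at least 3.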

Additional observations from a re-analysis of the deposited data

Results flagged for a closer look

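In groups of 4 or more libraries, 7 of 132 enzyme and group combinations held a library far from the others for the group's range, and chance gives about 1 in 20. In control LPS libraries these were Dnmt3b in replicate 5 (4.007 CPM, the others 2.49 to 2.93), Ezh2 in replicate 5 (3.366 CPM, the others 4.45 to 4.82), Ezh1 in replicate 3 (15.57 CPM, the others 23.7 to 26.1) and Kat2b in replicate 4 (20.64 CPM, the others 14.5 to 15.7). In control saline libraries they were Sirt6 in replicate 6 (5.964 CPM, the others 3.33 to 4.22), Ep300 in replicate 6 (155.5 CPM, the others 170 to 178) and Kdm7a in replicate 5 (95.71 CPM, the others 118 to 131). The MIA LPS group has 3 batch 1 libraries and was not examined this way. No enzyme's LPS response differed between maternal groups by the test of that difference.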

How the results depend on the processing

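Over 30 alternatives, 11 of the 17 calls in MIA offspring and 12 of the 21 in control offspring kept their direction and their side of the threshold in each; no called member changed sign. Of the uncalled members 6 of 27 were called under at least 1 alternative in MIA offspring (Hdac6, Hdac7, Kat2a, Kdm5c, Kdm6b and Setd2) and 5 of 23 in control offspring (Ehmt2, Ezh1, Ezh2, Kdm1a and Kmt2d). The calls of Hdac5 and Hdac11 in MIA offspring were lost without the batch term and under no other alternative. Members called higher in control offspring numbered 5; RLE scaling, upper quartile scaling and no batch term gave 2 each, and DESeq2 and no filter on low counts 3 each, with 2 to 5 on leaving out a library. Without the batch term 6 were called higher in MIA offspring instead of 3, and 10 lower in control offspring instead of 16; that fit lets the batch 2 library into the MIA LPS mean. Leaving out a library gave 3 to 4 called higher and 12 to 14 lower in MIA offspring, and 11 to 17 lower in control offspring. Ratios past the threshold numbered 2 in control offspring and 0 to 2 on leaving out a library. With the replicate number as a replicate block, 4 members were called higher and 14 lower in MIA offspring and 5 higher and 13 lower in control offspring; same-numbered libraries shared no deviation beyond correlations of -0.14 to 0.22, so the numbers were not taken as pairing. A block on the second number of the ID label, which several mice share and whose meaning the labels do not give (correlation 0.0839), gave 3 higher and 14 lower in MIA and 6 higher and 16 lower in control offspring. MIA contrasts gave 0 called members under every alternative run. Depth limits Hdac7, Hdac10, Dnmt3b and, after LPS, Tet1 and Hdac11.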
